A study of Homo sapiens with 15 samples.

Results

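The genes described here were 127 genes of A673 cells, an Ewing sarcoma line, that were activated by endo-EF and restored by WT-EF. DAF restored them to a level like that of WT-EF or above it, since no upper limit was set. They were chosen among 57820 gene identifiers from read counts scaled to library size with TMM, expressed as log2 CPM with a prior count of 2, and averaged over the 3 libraries of each condition. A gene needed a mean raw count of at least 20 over the 15 libraries, a level in iLuc at least 1 log2 unit above iEF, a level with WT-EF at least 1 log2 unit above iEF, and a difference of DAF from iEF of at least 0.8 times that of WT-EF. This last ratio is called the DAF fraction. Of 15467 genes above the count minimum, 928 were activated and restored by WT-EF, and 127 of them met the DAF criterion. A further 544 had a DAF fraction between 0.2 and 0.8, and 257 had one under 0.2. The values of iLuc, iEF, WT-EF and DAF chose the genes, so they are given as a description. Where a count of edgeR calls between these conditions is printed, it stands beside the share over all genes and nothing is read from it. The Δ22 libraries entered the choice only through the count minimum and the scaling. The iEF libraries, to which Δ22 is compared, also entered the differences that chose the genes.

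The study used a KD/rescue system in which A673 cells were depleted of their own fusion protein and then supplied with another version. In iLuc, the shRNA targeted luciferase, and endo-EF was left in place. In iEF, the shRNA targeted EWS/FLI. Both received an empty vector as cDNA, and WT-EF, Δ22 and DAF libraries came from cells with that same shRNA plus the named cDNA. Each condition had 3 libraries, numbered 1 to 3, and the labels give nothing beyond these numbers on separate cultures, so p-values measure the spread between these libraries. WT-EF is the wildtype fusion, Δ22 lacks the EWS domain, and DAF carries tyrosine to alanine changes within the EWS domain. All cDNAs were delivered by retrovirus with a 3X-FLAG tag, outside the native locus. Knockdown began on day 1, the cDNA followed on day 5, and cells were kept under selection (puromycin at 2 μg/mL, hygromycin B at 400 μg/mL) until day 16.

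EWS/FLI joins the disordered, tyrosine-rich N-terminal part of EWS to the ETS DNA-binding domain of FLI1. It binds GGAA motifs, including tandem GGAA repeats (microsatellites), near which many genes in Ewing sarcoma are activated. The EWS part recruits other EWS/FLI molecules and coactivators, and a fusion without it keeps the DNA-binding domain but is a weak activator.

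Total counts per library ran from 28659475 to 41859880. FLI1 (ENSG00000151702), whose reads come from the endogenous fusion and from the cDNAs alike, measured 48.9 ± 2.69 CPM in iLuc (SD, n = 3) and 14.6 ± 1.43 CPM in iEF. It was at 17.6 ± 1.36 with WT-EF, at 24.5 ± 2.65 with DAF and at 31.4 ± 6.31 with Δ22, so FLI1 reads were more abundant in the DAF libraries than in the WT-EF libraries. The difference of DAF from WT-EF was 0.48 log2 units (edgeR quasi-likelihood test, Benjamini-Hochberg adjusted p = 0.00253). Its part in the levels described below was not tested. Among markers of the line, NR0B1 ranged from 3.60 to 60.6 CPM and NKX2-2 from 0.579 to 5.83 CPM, while CD99 had at most 3 counts in any library. CD99 lies in a pseudoautosomal region, which reference genomes can hold in duplicate, so its count was not read as its level. The epithelial marker EPCAM reached 0.977 CPM, the leukocyte marker PTPRC 1.01 CPM and the muscle factor MYOD1 0.0878 CPM. The 127 genes took between 0.358% and 0.398% of counts in iLuc and between 0.0717% and 0.0984% in iEF. With WT-EF they took 0.286%, 0.304% and 0.314%, with DAF 0.208%, 0.319% and 0.337%, and with Δ22 0.0957%, 0.154% and 0.151%. By this share, replicate 1 was the lowest library of DAF, Δ22, WT-EF and iEF.

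Sequences around the gene starts were examined because the choice of the genes used no sequence. Loci of at least 4 unbroken GGAA units were located in GRCh37, the build of the counts, within 5 kb of the canonical start given by GENCODE, with stretches of units at most 20 bases apart read as 1 locus. Such a locus was found for 23 of the 125 members with an annotated start (18.4%). The share was 17 of 255 (6.67%) for genes with a DAF fraction under 0.2, 56 of 534 (10.5%) for the genes in between, and 475 of 15100 (3.15%) for all genes above the count minimum. Runs of at least 8 units showed the same order, with 13.6% of members, 3.92% of the genes with a DAF fraction under 0.2, 7.68% of those in between and 1.21% of all genes. Among protein-coding genes alone the shares of a locus were 18.6%, 6.34%, 9.22% and 3.05%. Within 100 kb, the shares were 78.4% of members, 60.8% of the genes with a DAF fraction under 0.2, 72.8% of those in between and 54.7% of all genes. These shares are descriptions, and a repeat in the reference genome says nothing of its length or binding in these cells.

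The loci shown next are the 3 longest runs, the nearest one, those of FCGRT and PAX7 from a list of direct EWS/FLI targets, those shared by a pair of members, and that of the axon guidance gene SEMA5B. Each is written 5′ to 3′ on the strand that reads GGAA, with the GGAA units in capitals and other bases in lower case, and distances are from the gene start to the centre of the locus.
ISM2: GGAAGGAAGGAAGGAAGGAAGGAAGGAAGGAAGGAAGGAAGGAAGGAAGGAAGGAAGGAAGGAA
RIMBP2: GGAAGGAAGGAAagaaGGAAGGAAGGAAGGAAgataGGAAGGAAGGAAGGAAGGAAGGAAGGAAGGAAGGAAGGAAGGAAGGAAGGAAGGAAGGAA
ITGAM: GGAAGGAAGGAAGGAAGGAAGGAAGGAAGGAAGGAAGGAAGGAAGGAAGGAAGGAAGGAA
FCGRT: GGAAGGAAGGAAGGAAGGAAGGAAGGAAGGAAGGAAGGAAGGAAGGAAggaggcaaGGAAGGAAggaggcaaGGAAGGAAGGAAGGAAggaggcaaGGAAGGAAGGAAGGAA
PAX7: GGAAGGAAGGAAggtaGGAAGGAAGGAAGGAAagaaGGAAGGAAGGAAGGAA
CACNA1I: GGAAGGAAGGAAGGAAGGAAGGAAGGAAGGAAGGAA
KDM7A and KDM7A-DT: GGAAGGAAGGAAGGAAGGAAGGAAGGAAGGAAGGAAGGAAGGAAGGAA
SH2D3A and VAV1: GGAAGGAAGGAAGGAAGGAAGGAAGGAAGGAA
SEMA5B: GGAAGGAAGGAAGGAAGGAAGGAA

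The ISM2 repeat, an unbroken run of 16 units, lay in an intron of ISM2 at chr14:77964113-77964176 (plus strand), 1015 bases downstream of the start. The RIMBP2 locus, with 22 units in all and a longest run of 15, lay in an intron at chr12:131197722-131197817 (plus strand), 3075 bases downstream. ITGAM held an unbroken run of 15 units in an intron at chr16:31273662-31273721 (minus strand), 2395 bases downstream. The FCGRT locus, with 22 units in all and a longest run of 12, was at chr19:50014764-50014875 (plus strand), 1099 bases upstream of the canonical start and within an intron of other FCGRT transcripts. PAX7 had its locus of 11 units, none in a run of over 4, in an intron at chr1:18961991-18962042 (plus strand), 4676 bases downstream. These members differ widely in how their repeats are broken up. The CACNA1I run of 9 units was intergenic, at chr22:39966254-39966289 (minus strand), 487 bases upstream, and was the nearest to a start. KDM7A, a histone demethylase gene, and its divergent transcript shared a run of 12 units at chr7:139878037-139878084 (minus strand), in an exon of the transcript. SH2D3A, an adaptor gene, and VAV1, a guanine nucleotide exchange factor gene, shared an intergenic run of 8 units at chr19:6771806-6771837 (plus strand), 4375 and 898 bases upstream of their starts. The SEMA5B run of 6 units was intergenic at chr3:122749858-122749881 (minus strand), 3259 bases upstream. The 23 members held 21 distinct loci, of which 10 members had theirs upstream and 13 downstream of the start, with a median longest run of 11 units. KDM7A, KDM7A-DT, SH2D3A and VAV1 were named for these repeats, after their values were seen.

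**Figure D1:**
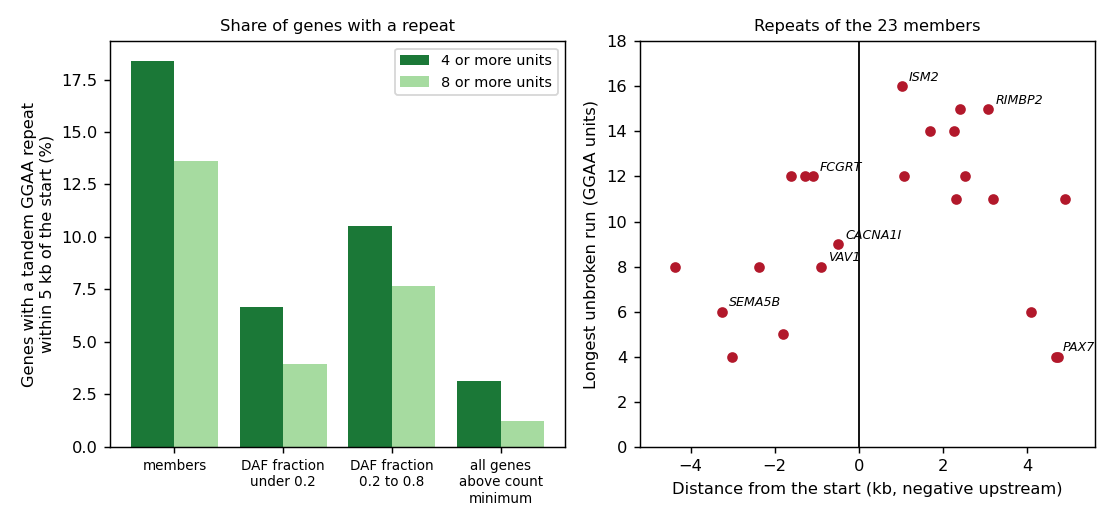
Left, percentage of genes with a tandem GGAA repeat of at least 4 (dark) or 8 (light) unbroken units within 5 kb of the start, for the members, the other activated genes by DAF fraction, and all genes above the count minimum. Right, each of the 23 members with a repeat, by distance from the start in kb and longest run in units. Members had the highest share (18.4%), and the longest run, 16 units in ISM2, lay downstream of its start.

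Members with and without a repeat within 5 kb were set side by side. The 23 members with one had a median difference from iEF of 3.25 log2 units in iLuc, 2.46 with WT-EF and 3.10 with DAF, against 2.09, 1.76 and 1.84 for the 102 without one. These differences are those of the choice, so they are a description only. With Δ22 the medians were 0.66 and 0.69, and 2 of the 23 and 15 of the 102 passed the test against iEF that is described below. In the immediate promoter, from 250 bases before to 50 after the start in the RefSeq table for GRCh38.p14, the motif GGAAGGAA was found on either strand in 1 of 95 matched members, CYSLTR1 (1.05%, 95% Wilson interval 0.186% to 5.72%). The share was 3.58% of all promoters in that table and 3.61% of the genes with a DAF fraction under 0.2. A run of 3 units, which contains the former motif, was in 0 of 95 member promoters and in 0.0623% of all. The single-site ETS motif CCGGAAG was in 3.16% of member promoters, 7.83% of those of genes with a DAF fraction under 0.2, 18.7% of those of all genes above the count minimum and 10.7% of all promoters.

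Over the 127 members, the median difference from iEF was 2.25 log2 units in iLuc (1.00 to 5.58), 1.80 with WT-EF (1.01 to 4.91) and 1.92 with DAF (0.93 to 5.49). These comparisons share the 3 iEF libraries, and they are those of the choice. In bulk RNA, more transcript per cell and more cells with the transcript cannot be told apart. The median DAF fraction was 1.00, with DAF above WT-EF in 64 members and a fraction over 1.5 in 12. Every library lay above every iEF library for 114 members with DAF (13.2% of the 28793 genes averaging at least 1 count, called genes tested below), 112 with WT-EF (17.9%) and 123 in iLuc (25.5%). Nothing is read from these counts, since the choice fixed their direction. The median member averaged 101.7 raw counts over the 15 libraries, and 37 averaged under 50 counts. In iEF, 5 members had at most 3 counts in every library, and none was at 0 in all of them.

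**Figure D2:**
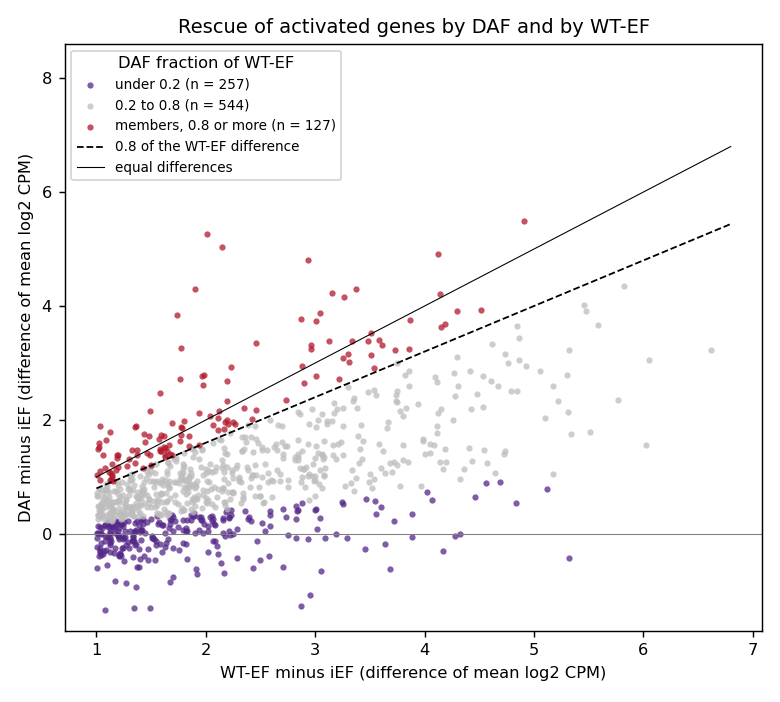
Each of the 928 activated genes restored by WT-EF, by its difference of WT-EF from iEF (horizontal axis) and of DAF from iEF (vertical axis), both as differences of mean log2 CPM over 3 libraries. The 127 members (red) lie above the dashed line at 0.8 of the WT-EF difference, and the 257 genes with a DAF fraction under 0.2 (purple) lie around 0 on the vertical axis.

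The edge of the group was not a gap. Just inside it were NGFR, the low-affinity neurotrophin receptor, with a DAF fraction of 0.804, EFNA3, an ephrin ligand, with 0.809, and DIPK2A with 0.813. Just outside were PRKCB, a protein kinase C gene and a known EWS/FLI target, with 0.7999, a gene without a symbol with 0.7996, and KCNV1, a potassium channel subunit gene, with 0.798. Within single replicate sets, defined by the library number, the DAF fraction reached 0.8 in 70 members in set 1, 120 in set 2 and 107 in set 3, and in all 3 sets in 51. Between the libraries of DAF and WT-EF, 122 members overlapped, 4 had every DAF library above every WT-EF library and 1 had every one below, where 20.9% and 16.5% of the genes tested did. The edgeR test called 13 members higher with DAF than with WT-EF and 0 lower, where 4706 and 3479 of the 28793 genes tested were. DAF and WT-EF entered the choice, so nothing is read from these counts. DAF replicate 1 was the lowest DAF library for 113 members (89%), against 42.2% of all genes above the count minimum. Its CPM was 0.512 times the mean of the other DAF libraries at the median member. Δ22 replicate 1 was the lowest Δ22 library for 101 members (79.5%), against 41.5% of all genes. For WT-EF and iEF, replicate 1 was the lowest for 66.1% and 52% of members, against 37.5% and 29.6% of all genes. Leaving out DAF replicate 1 raised the number of genes that met the criteria to 198, which held all 127.

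**Figure D3:**
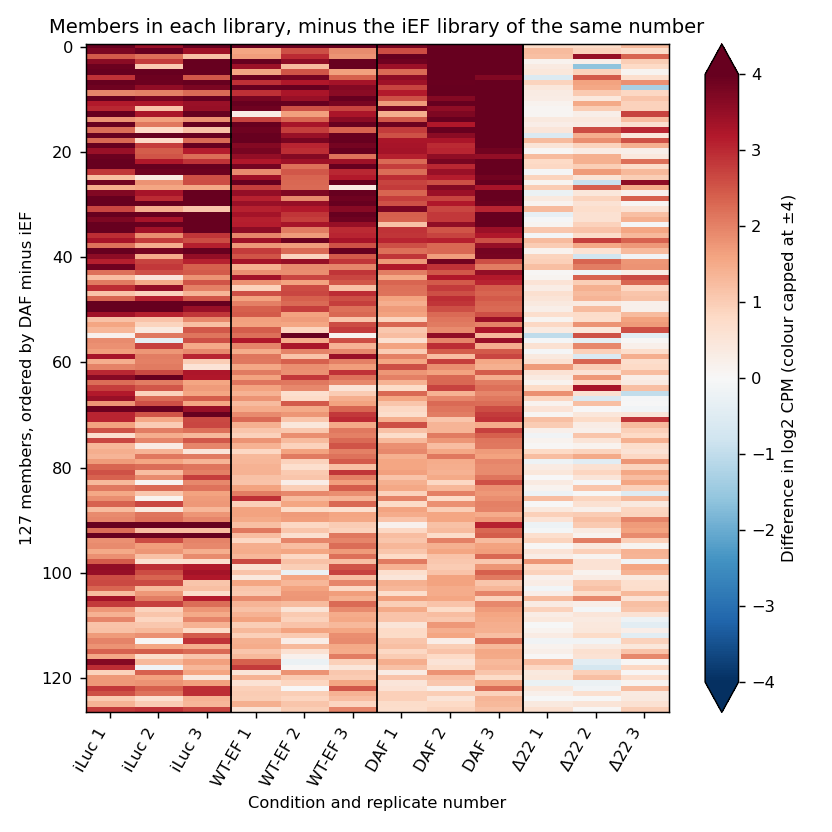
Difference in log2 CPM of each library from the iEF library with the same number, for the 127 members (rows, ordered by DAF minus iEF) in iLuc, WT-EF, DAF and Δ22 (columns, replicates 1 to 3), with red above and blue below iEF. DAF 1 is paler than DAF 2 and DAF 3, and the Δ22 columns are palest.

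The differences of the choice were next taken from the libraries of 2 replicate sets only, and the third set was then read. The count minimum and the scaling of the values read still used all 15 libraries. With sets 1, 2 and 3 left out in turn, 162, 128 and 122 genes met the criteria, of which 107, 102 and 88 were among the 127. In the set left out, the median difference of DAF from iEF was 1.34, 1.85 and 2.07 log2 units, and that of WT-EF was 1.74, 1.57 and 2.18. DAF was above iEF for 158 of 162, 124 of 128 and 117 of 122 of these genes. Of all activated genes restored by WT-EF, chosen in the same way, DAF was above iEF for 790 of 1030, 844 of 1073 and 684 of 810. The median DAF fraction in the set left out was 0.729, 1.22 and 0.962, a mean of 0.970 ± 0.245 (SD, n = 3). It reached 0.8 for 39.5%, 85.9% and 62.3% of the genes, compared with 11.4%, 21.1% and 15.7% of all activated genes restored by WT-EF in the same way. For genes chosen by a DAF fraction under 0.2 in the other sets, the median difference of DAF from iEF was -0.03, 0.10 and 0.18, and 2.96%, 2.18% and 0.5% of them reached 0.8. DAF above iEF was thus seen in each set left out, least in set 1, whereas the share of genes at or above 0.8 varied between sets.

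Δ22 was compared with iEF in these genes because its difference from iEF was not among the criteria, although its counts entered the count minimum. The iEF libraries did enter the differences that chose the genes. Such a choice favours genes low in iEF, which by itself raises the difference of Δ22 from iEF. The median difference was 0.68 log2 units (-0.25 to 2.34), and 122 of 127 members had a mean with Δ22 above that in iEF. So did 468 of the 544 genes with a DAF fraction of 0.2 to 0.8 and 116 of the 257 under 0.2. Of the 28793 genes tested, 14913 did. In the edgeR fit the median was 0.81, compared with 0.02 over all genes tested and -0.03 over the genes with a DAF fraction under 0.2. In that test, 17 members were higher with Δ22 than in iEF at an adjusted p under 0.05, where 0.493% of all genes tested were, and 0 were lower, where 0.781% were. Among protein-coding genes above the count minimum, 0.947% were higher and 1.57% lower. At an unadjusted p under 0.05, 59 members were higher and 0 were lower, where 6.76% and 6.82% of all genes tested were. DESeq2 called 34 members higher and 0 lower, against 2.87% and 3.84% of the 15954 genes to which it gave an adjusted p. Every Δ22 library was above every iEF library for 30 members (23.6%), against 7.95% of genes tested. That share was 14.3% of the genes with a DAF fraction of 0.2 to 0.8 and 2.33% of those under 0.2. The edgeR test called 12 of the 544 and 0 of the 257 genes in these groups higher with Δ22. The count of 17 rested on single libraries. It was 0 without replicate 2 of all conditions, where no gene at all passed, 0 without Δ22 replicate 2, 6 without Δ22 replicate 3, and 4, 8 and 2 without iEF replicates 1, 2 and 3.

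The median difference of Δ22 was smaller in set 1 than in the other sets, at 0.36, 0.71 and 0.92 log2 units in sets 1, 2 and 3. In sets left out of the choice, it was 0.27, 0.61 and 0.79, against -0.08, 0.03 and 0.17 for the genes with a DAF fraction under 0.2. The iEF library of a set left out entered the choice only through the count minimum. Δ22 was above iEF there for 121 of 162, 104 of 128 and 105 of 122 genes. Of all activated genes restored by WT-EF, chosen in the same way, it was above iEF for 557 of 1030, 724 of 1073 and 597 of 810. FLI1 reads were also fewest in replicate 1, at 24.4, 33.1 and 36.7 CPM in Δ22 libraries 1 to 3 and at 22.3, 23.8 and 27.4 CPM in DAF libraries 1 to 3, and their part in the differences between sets was not tested. As a fraction of the WT-EF difference, Δ22 stood at a median of 0.371 over the members, and over 0.5 in 39 of them (30.7%). The share over 0.5 was 6.47% of the 928 activated genes restored by WT-EF and 31.9% of all genes tested, for which no WT-EF difference was required. By the edgeR test, 66 members were higher with DAF than with Δ22, where 0.945% of the genes tested were, and every DAF library was above every Δ22 library for 70, against 5.87%. The members were chosen for high DAF values, so nothing is read from these counts.

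**Figure D4:**
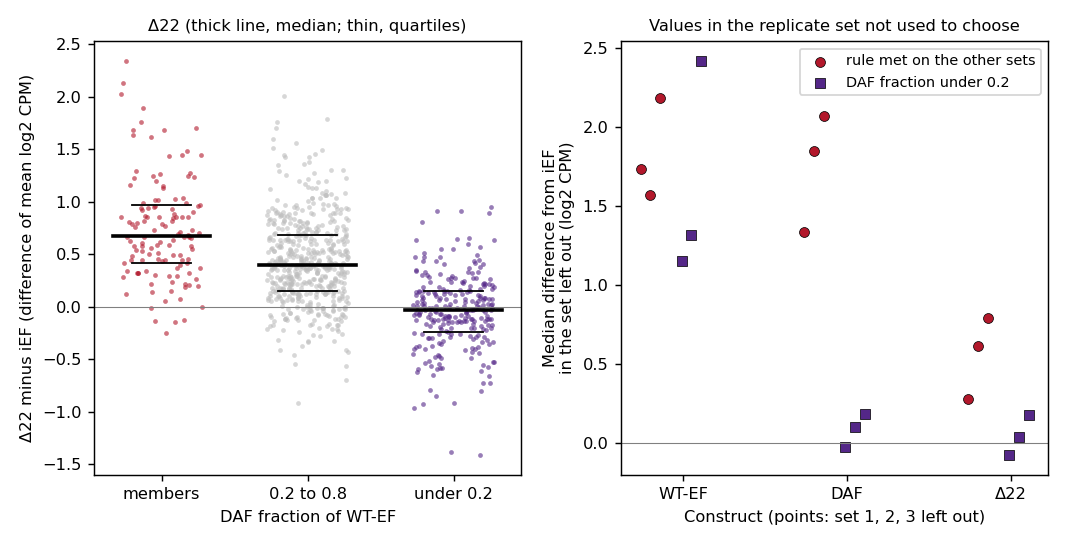
Left, difference of Δ22 from iEF in mean log2 CPM for the 127 members, the 544 genes with a DAF fraction of 0.2 to 0.8 and the 257 under 0.2 (points, genes; thick line, median; thin lines, quartiles). The medians are 0.68, 0.39 and -0.04. Right, median difference from iEF of WT-EF, DAF and Δ22 in the replicate set left out of the choice, for genes that met the criteria (circles) or had a DAF fraction under 0.2 (squares) in the other sets. The circles lie above the squares for DAF and for Δ22 in each set.

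Among the 17 members higher with Δ22, the largest fitted differences were those of ASB11, GRIA2, TFEC and GASK1B. GRIA2 (ENSG00000120251), which encodes an AMPA glutamate receptor subunit, was at 0.184, 0.169 and 0.260 CPM in iEF and at 0.498, 2.49 and 1.56 CPM with Δ22, with no overlap. The difference was 2.72 log2 units (SE 0.49, edgeR quasi-likelihood test, Benjamini-Hochberg adjusted p = 0.0139). With WT-EF it was at 0.721, 1.74 and 1.04 CPM, and with DAF at 4.91, 12.5 and 9.98 CPM, above every library of the other conditions. ASB11, a substrate receptor of a ubiquitin ligase, had 1, 1 and 4 counts in iEF and 0.146, 0.576 and 0.832 CPM with Δ22, a difference of 3.01 log2 units (SE 0.54, edgeR adjusted p = 0.0140). TFEC, a transcription factor of the MiT family, was at 0.895, 1.52 and 0.866 CPM in iEF and at 2.25, 5.63 and 5.39 CPM with Δ22, higher by 1.99 log2 units (SE 0.35, edgeR adjusted p = 0.0137). Its WT-EF libraries, at 20.4, 22.01 and 17.3 CPM, and DAF libraries, at 9.08, 15.2 and 19.1 CPM, were all above its iLuc libraries, at 4.58, 2.70 and 4.41 CPM. For GASK1B, a Golgi-associated kinase-like gene, the difference of Δ22 from iEF was 1.81 log2 units (SE 0.38, edgeR adjusted p = 0.0321), but its iEF library 2 at 1.56 CPM lay above its Δ22 library 1 at 1.11 CPM. Without replicate 2 of all conditions none of these 4 passed. The edgeR adjusted p was then 0.356 for ASB11, 0.389 for GRIA2, 0.250 for TFEC and 0.495 for GASK1B. With a single library left out it reached 0.0984, 0.110, 0.108 and 0.204 in the same order, each without Δ22 replicate 2.

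The members with the largest difference of DAF from iEF were SV2B, GABRA4, GRIA2, ISM2, PKHD1, SERPINB13, RBFOX1, TNNT1, ADGRA1, RIMBP2, MUC19 and MAP7D2, from 5.49 down to 3.91 log2 units. SV2B (ENSG00000185518), a synaptic vesicle protein gene, was at 3.11, 3.56 and 3.02 CPM in iLuc and at 0.0789, 0.271 and 0.0866 CPM in iEF. With WT-EF it was at 5.18, 5.01 and 6.67 CPM, with DAF at 1.84, 16.0 and 19.5 CPM and with Δ22 at 0.176, 0.497 and 0.290 CPM. Every library of iLuc, WT-EF and DAF lay above every library of iEF and Δ22, but DAF replicate 1 lay below all WT-EF libraries while DAF replicates 2 and 3 lay above them. ISM2 (ENSG00000100593), which encodes a secreted isthmin family protein and holds the run of 16 units, was at 0.316, 0.644 and 0.318 CPM in iEF, 7.32, 8.29 and 8.37 with WT-EF and 5.51, 20.7 and 23.7 with DAF. TNNT1 (ENSG00000105048), the slow skeletal troponin T gene, was at 1.47, 2.98 and 1.65 CPM in iEF, 11.5, 27.9 and 17.2 with WT-EF and 16.1, 47.4 and 69.0 with DAF. It was also among the 17 members higher with Δ22, by 1.49 log2 units (SE 0.32, edgeR adjusted p = 0.0321). In these genes DAF replicate 1 was again the lowest DAF library. Over all 12, its CPM was 0.146 times the mean of the other DAF libraries at the median gene, and under 0.5 times that mean in each of the 12.

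PKHD1, the fibrocystin gene, was at 0.0789, 0.441 and 0.0577 CPM in iEF and 1.41, 9.14 and 12.7 CPM with DAF, with 1.41, 1.13 and 1.97 CPM under WT-EF. SERPINB13, a protease inhibitor gene with 1, 2 and 1 counts in iEF, was at 0.194, 0.660 and 0.213 CPM under WT-EF and at 0.353, 2.47 and 6.81 CPM under DAF. In both, DAF replicates 2 and 3 exceeded all WT-EF libraries and the fraction was over 1.5. RBFOX1, a splicing regulator, RIMBP2, an active zone scaffold, and MAP7D2, a microtubule-associated protein, had DAF fractions of 1.27, 1.27 and 0.91. MUC19, a gel-forming mucin gene, had a fraction of 0.87, with 0.158, 0.610 and 0.0866 CPM in iEF and 1.24, 8.42 and 6.67 CPM with DAF.

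**Figure D5:**
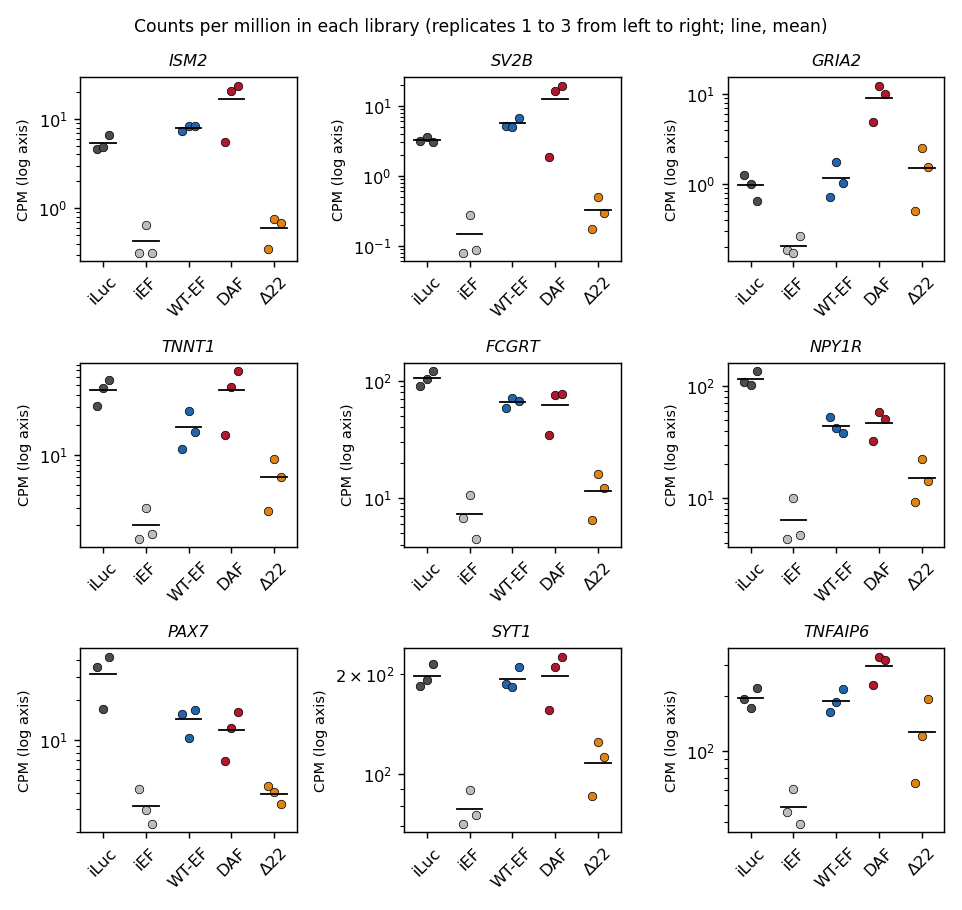
Level in CPM (log axis) of 9 members in each of the 15 libraries (points, replicates 1 to 3 from left to right; line, mean of 3). In all 9 genes every DAF and WT-EF library is above every iEF library, and the Δ22 mean lies between the iEF and DAF means.

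The most counted members spanned a wide range of differences. SYT1 (ENSG00000067715), the synaptotagmin that senses calcium for vesicle release, was at 184, 192 and 215 CPM in iLuc, 70.8, 89.5 and 75.5 CPM in iEF, 187, 183 and 210.0 with WT-EF and 156, 210.0 and 226 with DAF. Its Δ22 libraries were at 86.1, 125 and 112 CPM, a difference from iEF of 0.45 log2 units (SE 0.11, edgeR adjusted p = 0.0667). TNFAIP6 (ENSG00000123610), a secreted hyaluronan-binding protein gene, was at 45.7, 61.2 and 38.9 CPM in iEF, 163, 186 and 220.0 with WT-EF and 231, 333 and 321 with DAF, so that DAF lay above both WT-EF and iLuc. It was higher with Δ22 than in iEF, at 66.1, 120.0 and 194 CPM, by 1.30 log2 units (SE 0.24, edgeR adjusted p = 0.0169). YPEL5, FZD4, CLDN1, SLC26A2, KCNE4 and CES1 completed the 8 most counted members, with differences of DAF from iEF of 0.94, 0.95, 1.47, 0.95, 1.53 and 3.53 log2 units. CES1, a liver-type carboxylesterase gene, was at 10.2, 29.1 and 11.3 CPM in iEF and at 101, 230.0 and 224 CPM with DAF. Its neighbour CES1P1, a pseudogene of the same family, was also a member, and the split of reads between the pair is uncertain. CLDN1, a tight junction gene, was uneven among libraries, at 67.1, 102 and 299 CPM with DAF and 35.4, 54.1 and 187 CPM with Δ22.

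Direct targets of EWS/FLI were considered from a list of 30 expressed genes. Of these, 4 were members, 17 were activated and restored by WT-EF with a DAF fraction under 0.8, 6 lay under 1 log2 unit in iLuc over iEF and 3 under 1 log2 unit with WT-EF. The 6 included UPP1, PDGFC and CCND1, with differences of iLuc from iEF of -2.75, -1.15 and -0.05 log2 units. Thus 4 of the 21 listed genes activated and restored by WT-EF were members, where 113 of 741 such protein-coding genes were. FCGRT (ENSG00000104870), the neonatal Fc receptor gene, was at 89.7, 105 and 121 CPM in iLuc, 6.68, 10.5 and 4.50 CPM in iEF, 58.4, 71.5 and 67.3 with WT-EF and 34.8, 75.3 and 77.5 with DAF, a DAF fraction of 0.952. With Δ22 it was at 6.44, 16.0 and 12.2 CPM, which overlapped iEF (0.63 log2 units, SE 0.26, edgeR adjusted p = 0.300). NPY1R and NPY5R, receptors for neuropeptide Y, are transcribed in opposite directions and overlap at their starts, so reads in the overlap cannot be assigned without strand. NPY1R was at 4.34, 10.03 and 4.71 CPM in iEF, 52.4, 42.5 and 37.7 with WT-EF and 32.6, 58.0 and 50.96 with DAF. With Δ22 it was at 9.22, 22.1 and 14.1 CPM, higher than iEF by 1.26 log2 units (SE 0.28, edgeR adjusted p = 0.0443), a call lost in 9 of the alternatives. NPY5R had a DAF fraction of 1.09, and its difference of Δ22 from iEF was 1.27 log2 units (SE 0.40, edgeR adjusted p = 0.148). PAX7 (ENSG00000009709), a homeobox transcription factor gene of muscle progenitors, was at 4.24, 2.95 and 2.31 CPM in iEF, 15.8, 10.3 and 16.9 CPM with WT-EF, 6.92, 12.4 and 16.3 under DAF and 4.45, 4.06 and 3.26 under Δ22. All 4 stayed below their iLuc levels with DAF at the mean, and the DAF libraries of FCGRT, NPY1R, NPY5R and PAX7 were each below every iLuc library.

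Several targets named in the study were not among the members. NR0B1, an orphan nuclear receptor gene, had a DAF fraction of 0.723, and GSTM4, a glutathione transferase gene, one of 0.604. Each had a GGAA locus within 5 kb upstream of its start. With DAF they were above iEF by 2.29 and 1.23 log2 units. The study, which set no such fraction, reported both as rescued by DAF, NR0B1 partially in its qRT-PCR. It placed GLI1, SOX2 and NKX2-2 among genes that WT-EF alone activated. GLI1, the Hedgehog pathway factor, had a fraction of 0.174, while SOX2 and NKX2-2, both developmental transcription factors, had fractions of -0.01 and -0.04. Developmental transcription factors held 4 of the 113 protein-coding members (3.54%) and 17 of the 205 protein-coding genes with a DAF fraction under 0.2 (8.29%), and they were 1.72% of all protein-coding genes above the count minimum. Of the 741 protein-coding genes activated and restored by WT-EF, members included, 42 were developmental transcription factors. The members among them were PAX7, STAT4, BHLHE22 and FOXO4. This list, drawn up by gene name, did not hold every transcription factor. The member TFEC was not on it, so the shares hold for the list only. STAT4, a cytokine-response factor, was at 0.210, 0.305 and 0.173 CPM in iEF and 0.742, 0.957 and 0.843 CPM with DAF. BHLHE22, a neuronal bHLH factor, was at 9.74, 6.08 and 8.73 CPM in iLuc but reached only 0.554, 0.528 and 0.292 with WT-EF and 0.247, 0.691 and 1.42 with DAF, against 0.210, 0.271 and 0.115 CPM in iEF. Its membership thus rested on a small WT-EF difference of 1.01 log2 units.

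Ion channel genes made up 7 of the 113 protein-coding members (6.19%), 1.95% of the protein-coding genes with a DAF fraction under 0.2 and 0.862% of all protein-coding genes above the count minimum. They were GABRA4, GRIA2, CACNA1I, GRIK3, KCNE4, KCNH2 and CACNG8. Of the 741 protein-coding genes activated and restored by WT-EF, members included, 31 were channel genes. GABRA4 (ENSG00000109158), a GABA-A receptor subunit gene, had 1, 0 and 3 counts in iEF and was at 1.09, 2.19 and 1.45 CPM in iLuc, 0.194, 0.290 and 0.478 with WT-EF and 0.459, 5.82 and 13.5 with DAF. Its DAF fraction of 2.62 came with a wide spread among DAF libraries. CACNA1I, a T-type calcium channel gene with the repeat nearest to its start, was at 2.86, 2.03 and 3.91 CPM in iLuc, 0.388, 0.554 and 0.930 with WT-EF and 0.247, 0.850 and 0.674 with DAF, so that both constructs left it under its iLuc level. Of the 111 channel genes above the count minimum, the edgeR test called 44 up and 25 down with WT-EF, 31 up and 8 down with DAF, and 3 up and 2 down with Δ22, each against iEF. Of the 12880 protein-coding genes above the count minimum, 19.9% were up and 29.8% down with WT-EF, 8.77% up and 11.6% down with DAF, and 0.947% up and 1.57% down with Δ22.

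Among receptors coupled to G proteins, 6 were members (5.31% of the protein-coding members, 0.488% of the protein-coding genes with a DAF fraction under 0.2 and 0.87% of all), and they were ADGRA1, ADGRG7, NPY5R, NPY1R, CALCRL and FZD4. Of the 741 protein-coding genes activated and restored by WT-EF, members included, 24 were such receptors. ADGRG7, an adhesion receptor gene with a GGAA run of 14 units, was at 0.553, 0.407 and 0.375 CPM in iEF, 2.19, 2.56 and 3.45 with WT-EF and 2.79, 5.00 and 8.93 with DAF. ADGRA1, also an adhesion receptor gene, had 1, 2 and 3 counts in iEF and was at 0.495, 4.60 and 3.77 CPM with DAF. Of the 112 receptors, 21 were higher and 13 lower with DAF than in iEF by the edgeR test, and 3 higher and 4 lower with Δ22, to be read against the same shares of protein-coding genes.

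Axon guidance genes numbered 3 among the members, SEMA5B, ROBO2 and EFNA3. They were 2.65% of the protein-coding members, 0.488% of the protein-coding genes with a DAF fraction under 0.2 and 0.458% of all protein-coding genes above the count minimum. ROBO2 (ENSG00000185008), a receptor for SLIT ligands, was at 39.2, 41.2 and 41.0 CPM in iLuc, 17.6, 21.7 and 16.1 CPM in iEF, 105, 140.0 and 125 with WT-EF and 78.7, 129.9 and 80.7 with DAF. Both constructs thus took it above its iLuc level in every library. With Δ22 it was at 27.7, 52.7 and 34.9 CPM, higher than iEF by 1.03 log2 units (SE 0.14, edgeR adjusted p = 0.00447). SEMA5B, a semaphorin gene, was at 0.111, 0.660 and 0.505 CPM under WT-EF and at 0.318, 2.98 and 4.75 CPM under DAF. Cell adhesion genes numbered 3, namely ITGAM, PCDH12 and CDH23, with shares of 2.65%, 0.976% and 0.893% in the same order. ITGAM, an integrin alpha chain gene of myeloid cells, was at 0.392, 0.361 and 0.947 CPM in iLuc, 0.132, 0.237 and 0.231 CPM in iEF, 1.89, 1.82 and 1.78 with WT-EF and 0.495, 2.68 and 2.56 with DAF.

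The remaining lists held few members. Transporters and pumps gave 4, SLC15A2, SLC24A3, SLC9A9 and SLC26A2. They were 3.54% of the protein-coding members, 2.44% of the protein-coding genes with a DAF fraction under 0.2 and 2.07% of all protein-coding genes above the count minimum. SLC15A2, a peptide transporter gene, was at 0.763, 2.71 and 1.10 CPM in iEF, 15.5, 27.0 and 19.4 with WT-EF and 12.4, 25.4 and 20.5 with DAF. SLC26A2, a sulfate transporter gene, was at 523, 441 and 654 CPM in iLuc but at 175, 194 and 220.0 with WT-EF and 168, 191 and 160.0 with DAF. The list of growth factors, cytokines and neuropeptides, drawn up by gene name, gave FGF12 and FGF11, and signalling genes included PLCG2, a phospholipase C gene. The same shares were 1.77%, 2.44% and 0.807% for the growth factor list and 1.77%, 4.39% and 2.13% for signalling genes. No gene of the extracellular matrix list (116 above the count minimum) or of the glutathione transferase list (14) was a member, where 113 of 12880 protein-coding genes were, and 5 and 3 genes of these lists were activated and restored by WT-EF.

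Rescue was also set against endo-EF. WT-EF was below iLuc for 36 members by the edgeR test, where 8.61% of all genes tested were, and above iLuc for 8, where 11.1% were. Both groups had entered the choice, so nothing is read from these counts. The DAF libraries overlapped those of iLuc in 74 members, lay all below them in 39 and all above them in 14, where 25% and 27.2% of the genes tested did. DAF entered the choice as well, so these counts are a description only. KMO, an enzyme gene of tryptophan breakdown with the largest iLuc difference of all members, 5.58 log2 units, was at 22.8, 28.1 and 28.5 CPM in iLuc, 4.05, 8.23 and 11.4 with WT-EF and 2.12, 6.75 and 9.10 with DAF, and was named after its values were seen.

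The members lay on 22 chromosomes, and 7 pairs of members were within 100 kb of each other. These were CES1P1 and CES1, SH2D3A and VAV1, CLDN1 and CLDN16, NPY1R and NPY5R, KDM7A and KDM7A-DT, FOXO4 and IL2RG, and CEACAM21 with an overlapping gene that has no symbol. For overlapping and divergent pairs, the strand setting of the counting is not given in the sources used here. Of the 127 members, 113 were protein-coding, 11 were lncRNA genes and 9 had no symbol. Protein-coding genes were 90.4% of the annotated members and 80.4% of the annotated genes with a DAF fraction under 0.2.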

How the data were processed

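RNA-seq of 15 A673 libraries was analysed, with 5 conditions of 3 libraries grouped by their labels. Alignment by the authors used STAR on hg19 (GRCh37), htseq-count (intersection-strict) gave read numbers per gene, and the deposited counts are whole numbers without normalization. Their ComBat-adjusted counts and their own table of fold changes, standard errors and adjusted p-values were not used, nor were 3 columns of other samples. Symbols were matched for 55538 of 57820 identifiers. The members, gene lists and naming rule were chosen with earlier results of these data known. The rule named members by size of DAF minus iEF, mean count, target and function lists, Δ22 calls and the edge at 0.8.

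TMM factors came from edgeR 4.0.16 in R 4.3.3. Genes averaging at least 1 count (28793) were fitted in 1 quasi-likelihood model over all libraries, with replicate number as a block because the authors adjusted replicate sets with ComBat, and p-values were adjusted over all genes (Benjamini-Hochberg, 0.05). Deviations from the group means correlated more within a number (median r 0.181, 30 pairs, -0.147 to 0.708) than between numbers (-0.0781, 60 pairs). Replicates differed beyond counting noise (chi-square per gene 12.9 to 83.2). Intervals cover counting error only. GGAA loci were searched in GRCh37 with GENCODE starts. Alternatives included DESeq2 1.42.0.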

Additional observations from a re-analysis of the deposited data

How the results depend on the processing

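The number of members was within 1.5 times 127 under the other settings, except 195 with a fraction of 0.7, and ran from 109 to 198 over the fits that left out a library or a replicate set, the highest without DAF replicate 1. The median difference of Δ22 from iEF over members ran from 0.61 to 0.97 over such fits and no result changed direction. The count of members higher with Δ22 (17) was 7 with no replicate block, 47 with no filter on low counts and 34 by DESeq2, and 0 to 21 over the fits that left out a library or set, with 0 both without replicate 2 of all conditions and without Δ22 replicate 2. Of all genes, 367 differed between Δ22 and iEF, against 171 with no replicate block, 1514 with no filter, 1071 by DESeq2, 591 with the 6 libraries alone and 0 to 639 with a library or set left out. Members higher with DAF than Δ22 (66) were 43 with no block, 107 with the 6 libraries alone and 32 to 67 with a library or set left out (32 without replicate 2 of all conditions). Members lower with WT-EF than iLuc (36) were 23 with no block and 20 to 47 with a library or set left out, and members higher (8) were 5 with no block, 18 with no filter and 3 to 11. Nothing is read from these counts, since DAF, WT-EF and iLuc entered the choice. The share of member promoters with a run of 3 GGAA units was 0. The difference of FLI1 between DAF and WT-EF kept its call in every fit (adjusted p 0.00644 to 0.0363 with a library or set left out). With no replicate block the adjusted p was 0.055 for ASB11, 0.236 for GASK1B and 0.110 for NPY1R. Scaling with TMM from the genes tested only, and the reading of sets left out, were chosen after seeing the data. At 3 libraries a group, a mean of under 50 counts in 37 members limits what can be read from single genes.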
